A study of Arabidopsis thaliana with 6 samples.

Results

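The zinc finger genes described here are 10 Arabidopsis thaliana loci of the C1-2i subgroup of C2H2 zinc finger genes. They are ZAT5 (AT2G28200), ZAT6 (AT5G04340), ZAT7 (AT3G46090), ZAT8 (AT3G46080), STZ, also called ZAT10 (AT1G27730), ZAT11 (AT2G37430), ZAT12 (AT5G59820), AZF1 (AT5G67450), AZF2 (AT3G19580) and AZF3 (AT5G43170). They were taken by locus code, and all 10 had 1 row each among 30237 rows for 29920 loci. Leaf 3 was dissected from seedlings of the Col-0 ecotype at an age labelled 9DAS, after 4 h on medium with 5 uM dexamethasone. A strong overexpressing line of the transcription factor gene ERF6, ERF6:IOE, was compared with the control line GFP:IOE, with 3 arrays per line numbered as biological repeats 1 to 3. Both lines received dexamethasone, each genotype is represented by 1 line, and neither the promoter nor the inducible construct is named in the labels. Arrays without dexamethasone were not analysed here, so differences that the lines had before it are included. The series' design text traces the samples to separate experiments, each with several plates.

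Proteins of this subgroup carry a pair of zinc fingers that bind DNA, and many carry an EAR motif, a short stretch that recruits corepressors such as TOPLESS. Many of their genes are known for rapid induction by salt, cold, wounding, high light or pathogens. STZ and ZAT6 proteins are known substrates of stress-activated MAP kinases, and STZ is best known from salt and drought tolerance. ERF6 belongs to the AP2/ERF family and is known as a regulator of leaf growth under water limitation.

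Values below are log2 expression as deposited. A log2 fold is the mean of ERF6:IOE minus the mean of GFP:IOE, and SE is its moderated standard error in limma. Rose and fell are used for genes with a limma adjusted p under 0.05 over all rows. ERF6 transcript, which checks the labels, was 9.99, 9.97 and 10.4 on the ERF6:IOE arrays and 6.89, 7.38 and 7.55 on the GFP:IOE arrays, in the order of repeats 1 to 3, and rose 7.22-fold. That order is used throughout. An introduced and a native ERF6 transcript were not distinguished. Leaf markers were bright, with 6 of 6 measured ones, among them the Rubisco small subunit gene RBCS1A, above the upper quartile of every array. No root or shoot meristem marker was that bright, and 3 of 6 and 2 of 4 of them lay below the median of every array. None of the 25 measured markers of leaf, root, meristem, stomatal lineage and vascular tissue passed the test (lowest limma adjusted p 0.344).

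Of the 10 zinc finger genes, ZAT6 and STZ rose in ERF6:IOE and the other 8 did not pass the test. None fell. Over all rows, 0.698% were called higher and 0.0265% lower. The family's median log2 fold was 0.11, against -0.02 over all rows. Because RNA came from whole leaves, a change in the number of cells that express a gene and a change in RNA per cell cannot be told apart.

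ZAT6, a gene linked to phosphate homeostasis, root growth and stress tolerance, stood at 4.79, 4.37 and 4.80 in GFP:IOE (mean 4.65 ± 0.24, SD, n = 3). In ERF6:IOE its values were 8.34, 7.47 and 8.04 (7.95 ± 0.44, SD, n = 3). Every ERF6:IOE array was above every GFP:IOE array, with a gap of 2.66 between the nearest arrays of the lines. ZAT6 thus rose 9.80-fold, with a log2 fold of 3.29 (SE 0.23, 95% interval 2.75 to 3.84, limma adjusted p 0.00107). Among all rows called higher it held rank 13 of 211 by log2 fold, and ERF6 itself held rank 18. The GFP:IOE values of ZAT6 lay below the array median but above the lower quartile.

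STZ, whose protein is a repressor of stress-responsive genes, was 6.64, 7.02 and 7.36 in GFP:IOE (mean 7.00 ± 0.36, SD, n = 3). In ERF6:IOE it stood at 8.67, 8.23 and 8.88 (8.60 ± 0.33, SD, n = 3). The lines again did not overlap, and the nearest arrays were 0.87 apart. STZ rose 3.01-fold, with a log2 fold of 1.59 (SE 0.23, 95% interval 1.06 to 2.12, limma adjusted p 0.0309), and held rank 60 of 211. Its call depended on single arrays. The limma adjusted p was 0.0892 without GFP:IOE replicate 1, 0.132 without GFP:IOE replicate 2, 0.114 without ERF6:IOE replicate 1 and 0.108 without ERF6:IOE replicate 3. With repeat 1, 2 or 3 left out of both lines it was 0.268, 0.175 and 0.102, with log2 folds of 1.37, 1.78 and 1.63. ZAT6 passed in each of these fits, with limma adjusted p-values up to 0.0388.

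**Figure D1:**
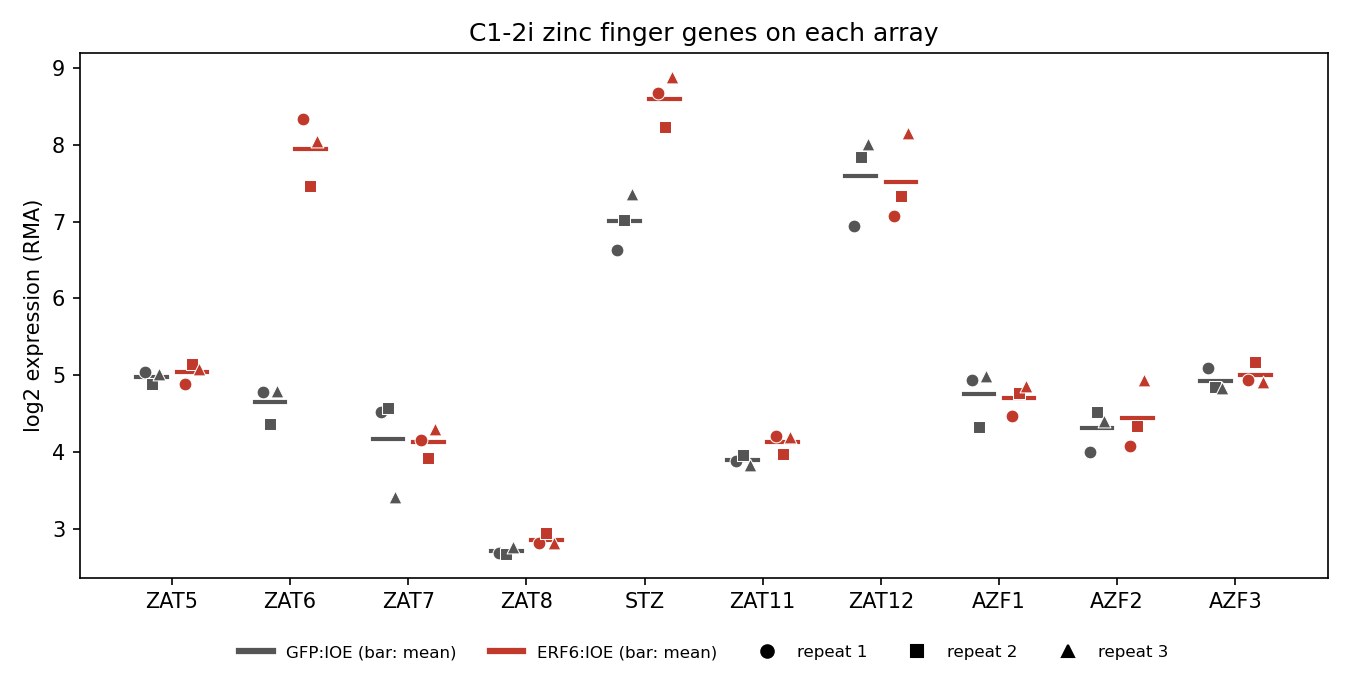
Log2 expression of the 10 zinc finger genes on each array, GFP:IOE in grey and ERF6:IOE in red, with 1 symbol shape per repeat and a bar at the mean of 3 arrays. Both lines separate widely for ZAT6 (4.37 to 4.80 against 7.47 to 8.34) and for STZ (6.64 to 7.36 against 8.23 to 8.88), while ZAT12, ZAT7 and AZF2 spread widely within a line.

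ZAT6 and STZ were also set against each other within each array. The log2 value of ZAT6 minus that of STZ was -1.85, -2.64 and -2.56 in GFP:IOE and -0.34, -0.77 and -0.84 in ERF6:IOE. These differences did not overlap between the lines. Their means differed by 1.70 (SE 0.30 from the spread of 3 arrays per line), a ratio of 3.25 between the fold changes of ZAT6 and STZ. An exact two-sided permutation test over arrays gave p = 0.1, the smallest p that 3 arrays against 3 allow, so that this test cannot reach 0.05 whatever the size of the difference.

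Among the 8 members that did not pass, the log2 fold ran from -0.08 to 0.23, and limma adjusted p-values ran from 0.670 to 0.984. At an unadjusted p under 0.05 none of the 8 passed either, while 4.8% of all rows were higher and 3.22% lower at that threshold. Their 95% intervals, taken 1 gene at a time, all lay within a 2-fold difference in either direction. ZAT7, ZAT8 and ZAT11 lay below the median of all 6 arrays, AZF2 below that of 5, AZF1 of 4 and AZF3 of 2. Whether the arrays could register a 2-fold difference at such low levels was not tested. The 8 genes differed in how tight these intervals were.

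ZAT12, also named RHL41 and known from responses to oxidative stress and high light, was 6.94, 7.84 and 8.00 in GFP:IOE and 7.07, 7.33 and 8.15 in ERF6:IOE. The lines overlapped almost entirely, and repeat 3 was highest in both. The log2 fold was -0.08 (SE 0.35), and the 95% interval ran from -0.90 to 0.75, or from 1.87-fold lower to 1.68-fold higher. Its spread within lines was larger than that of most genes on the array, at the 98.4th percentile of residual SD over all rows.

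ZAT7, a gene known from salt tolerance, was 4.52, 4.58 and 3.42 in GFP:IOE and 4.16, 3.92 and 4.31 in ERF6:IOE. One control array, repeat 3, was the lowest of the 6, and the line means of 4.18 and 4.13 were nearly equal. The log2 fold was -0.05 (SE 0.30, 95% interval -0.76 to 0.66). Without GFP:IOE replicate 3 the log2 fold was -0.42, and it did not pass there either (limma adjusted p 0.560).

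ZAT8, whose locus stands close to ZAT7 on chromosome 3 in the name table, with 1 gene between them, was near the floor of the arrays. Its values were 2.69, 2.68 and 2.76 in GFP:IOE and 2.83, 2.95 and 2.82 in ERF6:IOE, below the lower quartile of all 6 arrays. The lines did not overlap, but the nearest arrays were 0.05 apart and the log2 fold was 0.15 (SE 0.09, limma adjusted p 0.783).

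ZAT11, known from nickel tolerance, was 3.89, 3.96 and 3.84 in GFP:IOE and 4.21, 3.98 and 4.20 in ERF6:IOE. The lines did not overlap, with nearest arrays 0.02 apart. The log2 fold was 0.23 (SE 0.11, unadjusted p 0.0642, limma adjusted p 0.670). On 4 of 6 arrays ZAT11 lay below the lower quartile. Counted together, 4 of the 10 members were higher with no overlap between the lines (ZAT6, STZ, ZAT8 and ZAT11) and 0 were lower with no overlap. Of the 8 members other than ZAT6 and STZ, 2 were higher and 0 lower without overlap, and these were ZAT8 and ZAT11 with gaps of 0.05 and 0.02. Over all rows, 6.93% were higher and 6.52% lower without overlap. The members were chosen with earlier results of these data known, so the counts are a description.

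AZF2, an abscisic acid responsive repressor gene, was 4.00, 4.52 and 4.41 in GFP:IOE and 4.08, 4.34 and 4.93 in ERF6:IOE. The lines overlapped, and the log2 fold was 0.14 (SE 0.24, 95% interval -0.41 to 0.69). AZF1, its relative, was 4.95, 4.33 and 4.99 against 4.48, 4.77 and 4.87, with a log2 fold of -0.05 (SE 0.20, 95% interval -0.52 to 0.41). AZF3 varied less, from 4.83 to 5.18 over the 6 arrays, with a log2 fold of 0.08 (SE 0.12). ZAT5 ranged from 4.88 to 5.15, with a log2 fold of 0.06 (SE 0.11) and a 95% interval of -0.20 to 0.32. Both genes overlapped between the lines.

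**Figure D2:**
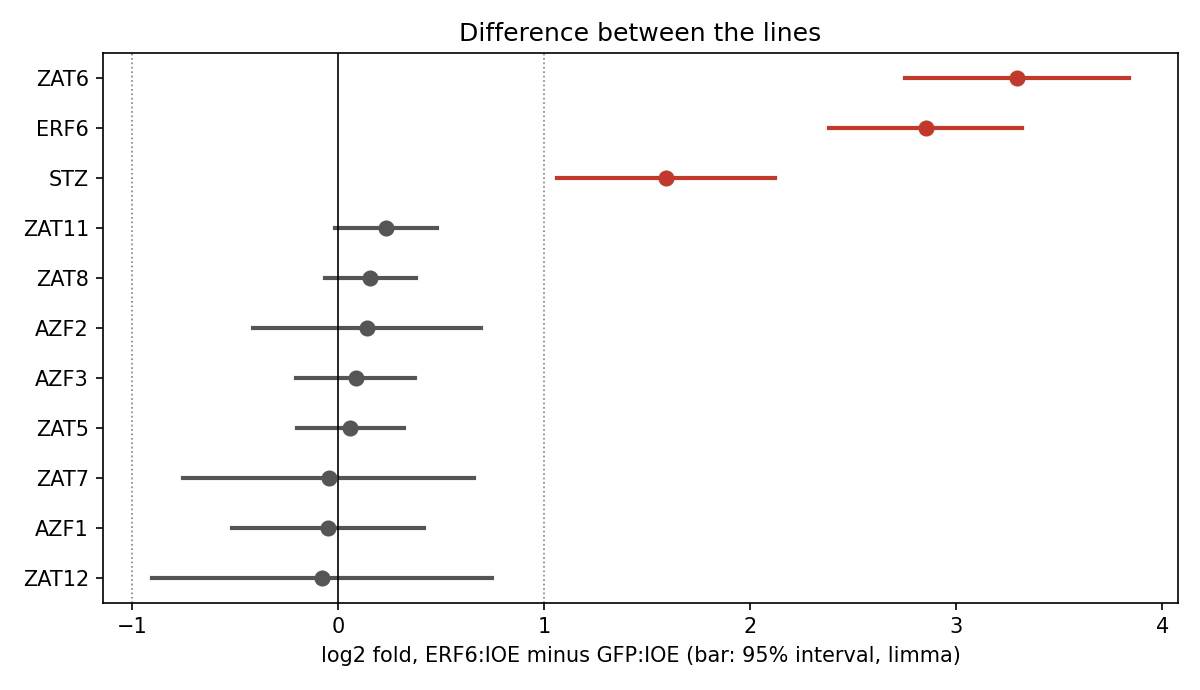
Log2 fold of ERF6 and of the 10 zinc finger genes, ERF6:IOE minus GFP:IOE, with 95% intervals from limma over 3 arrays per line. Red marks genes that passed the test (ZAT6, ERF6 and STZ) and dotted lines mark a 2-fold difference, within which the intervals of the other 8 genes lie, ZAT12 having the widest (-0.90 to 0.75).

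The members also differed in their spread within lines. For 6 of 10, namely ZAT12, ZAT7, AZF2, ZAT6, STZ and AZF1, the residual SD was above the 80th percentile of all rows. STZ, ZAT12 and AZF1 were highest in repeat 3 of both lines, as were 12.8% of all rows. Among 17 genes that are placed downstream of ZAT6, STZ, ZAT12 or AZF2, 6 were highest in repeat 3 of both lines, and among 13 genes known to rise early after touch, wounding or handling, 7 were. Repeat 3 was looked at after values had been seen, so these counts are a description.

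Large differences between repeats were seen in the CBF genes, cold-induced activators that share a regulon with ZAT12 and that were singled out after their values were seen. CBF1 was 5.44, 5.58 and 7.88 in GFP:IOE and 4.45, 4.94 and 8.11 in ERF6:IOE. CBF2 was 7.37, 7.50 and 9.72 against 7.28, 6.81 and 9.77. DREB1A, also called CBF3, was 6.08, 6.15 and 8.64 against 5.81, 5.90 and 8.93. Repeat 3 exceeded the mean of the other repeats by 2.28 to 2.52 in GFP:IOE and by 2.72 to 3.42 in ERF6:IOE. For ZAT12 that excess was 0.61 and 0.95, for STZ 0.54 and 0.43, and for ZAT6 0.22 and 0.14. The part of repeat 3 in the wide intervals of ZAT12 and the CBF genes was not tested. Without repeat 3 of both lines, the log2 fold of STZ was 1.63 and that of ZAT6 was 3.32.

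**Figure D3:**
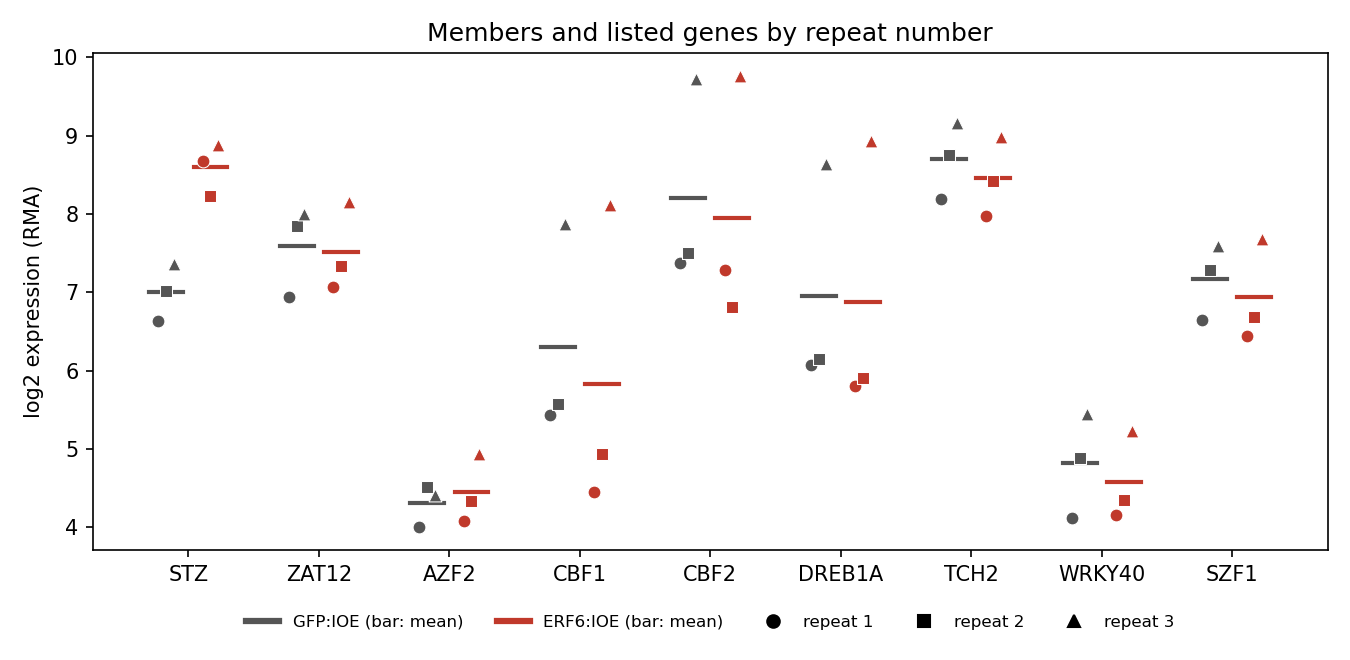
Log2 expression of STZ, ZAT12, AZF2 and 6 listed genes, chosen after their values were seen, on each array, GFP:IOE in grey and ERF6:IOE in red, symbol shape for the repeat and a bar at the mean. Repeat 3 (triangles) stands above the other repeats in both lines for all but AZF2 in GFP:IOE, by over 2 log2 units for CBF1, CBF2 and DREB1A.

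The rows whose pattern over the 6 arrays lay closest to ZAT6, after each row was centred on its own mean, were WRKY18, RAP2.9 and ORA59, at root mean square distances of 0.24, 0.30 and 0.34 log2 units. All 3 are transcription factor genes. WRKY18, a WRKY factor gene of defence regulation, was 5.40, 5.13 and 4.97 in GFP:IOE and 8.55, 8.14 and 8.32 in ERF6:IOE, or 9.02-fold higher (limma adjusted p 0.000187). RAP2.9 and ORA59, both of the AP2/ERF family, rose 13.3-fold and 7.73-fold. STZ, the nearest other family member to ZAT6, was at rank 50, with a distance of 0.90. These distances, for ZAT6 and for STZ below, were not scaled. A difference in the size of the fold therefore adds to them, and they are not a measure of pattern apart from the fold.

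For STZ the closest rows were RHA1B, EXO70H7 and AT1G46120, at distances of 0.13, 0.15 and 0.17. RHA1B, a RING-H2 finger gene, was 6.36, 6.67 and 6.92 in GFP:IOE and 8.11, 8.10 and 8.52 in ERF6:IOE, with a log2 fold of 1.59 (SE 0.18, adjusted p 0.0111 in limma), the same as that of STZ to 2 decimals. Its call was lost without GFP:IOE replicate 2 (limma adjusted p 0.061) and without repeat 1 or repeat 2 of both lines (0.127 and 0.173). EXO70H7, of an exocyst subunit family, rose by 1.43 (SE 0.20, limma adjusted p 0.0274), a call lost when any array other than GFP:IOE replicate 3 was left out (limma adjusted p up to 0.116). AT1G46120, annotated as a pseudogene, had a log2 fold of 1.37 (SE 0.24) and did not pass (limma adjusted p 0.0655). These rows, like STZ, were lowest in repeat 1 and highest in repeat 3 of GFP:IOE, and highest in repeat 3 of ERF6:IOE. The nearest other family member, ZAT11, was at rank 2128 (distance 0.73). Rows were picked for likeness, so their folds are a description.

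**Figure D4:**
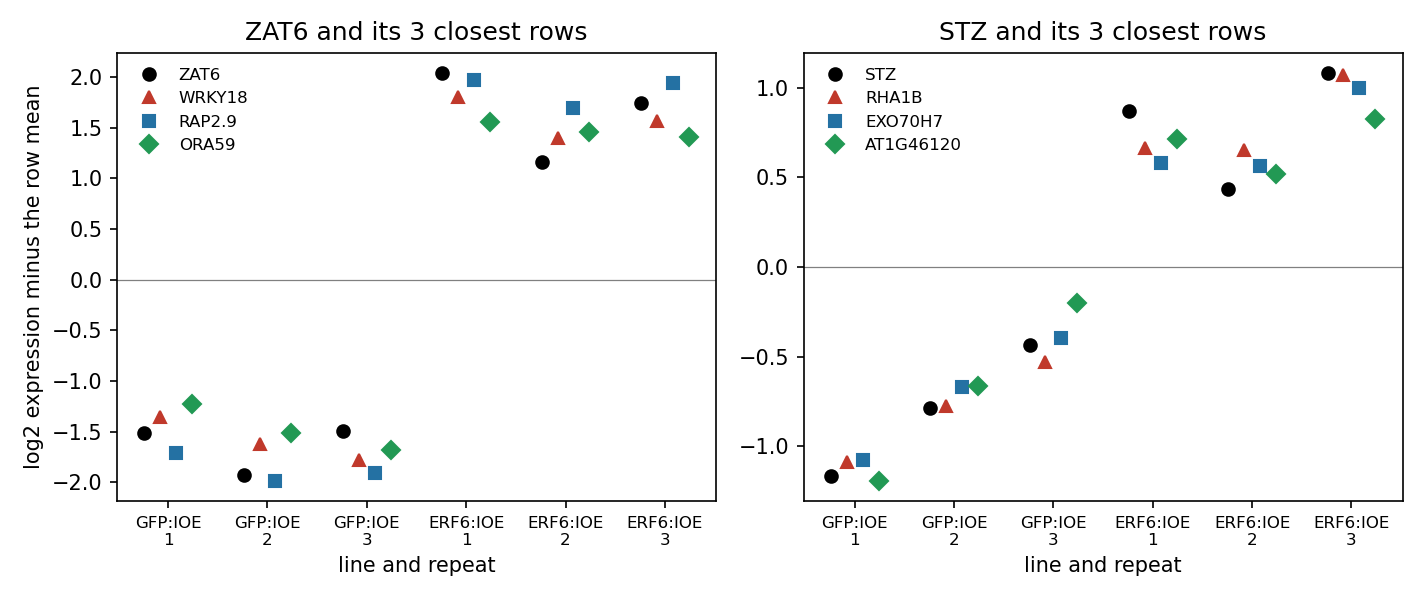
Log2 expression minus the row mean for ZAT6 (left) and STZ (right), each with its 3 closest rows over the 6 arrays, 1 symbol per gene. The ZAT6 group separates the lines widely, and in the STZ group repeat 1 is the lowest and repeat 3 the highest of the GFP:IOE arrays.

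The genes beside ZAT6 and STZ on their chromosomes were not called. Among the 2 genes on either side of each in the name table, all 8 were measured and 0 passed the test, with log2 folds from -0.17 to 0.42.

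Other regulator genes of the same kinds were looked at from lists. None of 27 other C2H2 zinc finger genes passed in limma, at log2 folds from -0.33 to 0.31 and with 0 higher and 2 lower at an unadjusted p under 0.05, beside 4.8% and 3.22% of all rows. Those 2 were GIS2, a trichome regulator gene, at -0.33 (SE 0.09, limma adjusted p 0.301), and DAZ1, known from the male germline, at -0.32 (SE 0.12, limma adjusted p 0.515). The 11 genes of corepressors and histone deacetylase complexes that EAR motif proteins recruit ranged only from -0.18 to 0.02 in log2 fold. None of these passed in limma, at the adjusted or at an unadjusted p under 0.05, and the TOPLESS-related genes TPR1 and TPR2 were at -0.18 and -0.12. Of 6 MAP kinase genes of the cascade that acts on zinc finger proteins, none passed. MPK3 was at 0.50 (SE 0.19, limma adjusted p 0.545, 1 of 6 higher with an unadjusted p under 0.05, beside 4.8% of all rows) and MKK9 at 0.29 (SE 0.16).

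ERF genes with an EAR motif, which like the zinc finger genes encode active repressors, had higher median values. None of the 8 passed in limma, but 5 were higher with an unadjusted p under 0.05, beside 4.8% of all rows. Without overlap between the lines 6 were higher, beside 6.93% of all rows. Their median log2 fold was 0.60, against 0.11 for the zinc finger genes. ERF4 was 7.96, 8.63 and 8.53 in GFP:IOE and 9.31, 9.31 and 9.69 in ERF6:IOE, a log2 fold of 1.06 (SE 0.20, adjusted p 0.0885 in limma). ERF8 was 7.59, 7.29 and 7.44 against 8.12, 7.98 and 8.14, a log2 fold of 0.64 (SE 0.11, adjusted p 0.0725 in limma). When only rows above the median level were tested, 3 genes of the list passed, among them ERF4 and ERF8 (limma adjusted p 0.0368 and 0.0232). ERF4 and ERF8 also passed with a variance trend and a robust prior fitted together in limma (adjusted p 0.0378 and 0.026). ERF3 (-0.03) and ERF7 (-0.09), picked after their values were seen, overlapped between the lines.

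Of 17 genes placed downstream of the zinc finger proteins, 1 rose, 0 fell and 16 did not pass. Over all rows, 0.698% were called higher and 0.0265% lower. At an unadjusted p under 0.05 in limma, 3 were higher and 1 lower, beside 4.8% and 3.22% of all rows. Without overlap between the lines, 4 were higher and 1 lower, beside 6.93% and 6.52% of all rows. The median log2 fold of the 17 was -0.04, against -0.02 over all rows. The list pools genes placed downstream of ZAT6, STZ, ZAT12 or AZF2, so this median does not describe those of ZAT6 and STZ alone. GSH2, the glutathione synthetase gene, was 7.44, 7.62 and 7.38 in GFP:IOE and 8.13, 8.19 and 8.16 in ERF6:IOE. The lines did not overlap, and GSH2 rose 1.60-fold (log2 fold 0.68, SE 0.10, limma adjusted p 0.0377). That call was lost when any single array was left out, with limma adjusted p-values from 0.0741 (without GFP:IOE replicate 2) to 0.159 (without GFP:IOE replicate 3), and with the replicate number as a block (0.093). The following 4 genes were picked after their values were seen. GSH1, which acts before GSH2 in glutathione synthesis, was at 0.21 (SE 0.16), and CAD1, the phytochelatin synthase gene, at 0.50 (SE 0.16, limma adjusted p 0.399). PR5, a pathogenesis-related gene, was at 0.93 (SE 0.18, limma adjusted p 0.110) and LOX3, a lipoxygenase gene of jasmonate synthesis, at -0.48 (SE 0.13, limma adjusted p 0.274).

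Most early touch and wound genes were not called. Of 13, 1 rose, 0 fell and 12 did not pass, beside 0.698% of all rows called higher and 0.0265% lower. A negative log2 fold was seen for 8 of 13 (median -0.24), beside 16259 of 30237 rows (median -0.02). TCH3, a calmodulin-like touch gene, was 8.03, 8.41 and 8.34 in GFP:IOE and 9.37, 9.25 and 9.41 in ERF6:IOE, with no overlap, and rose 2.12-fold (log2 fold 1.09, SE 0.13, limma adjusted p 0.0138). Its call was lost without ERF6:IOE replicate 1, 2 or 3 (limma adjusted p 0.0631, 0.0524 and 0.0714) and without any repeat of both lines (0.128 to 0.187), and with the replicate number as a block (0.0558). Other genes of the list, picked after their values were seen, had wide intervals, such as TCH4 at -0.32 (SE 0.30), WRKY40 at -0.24 (SE 0.38) and SZF1 at -0.24 (SE 0.36). The 6 reference genes ranged from -0.06 to 0.16 and none passed.

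**Figure D5:**
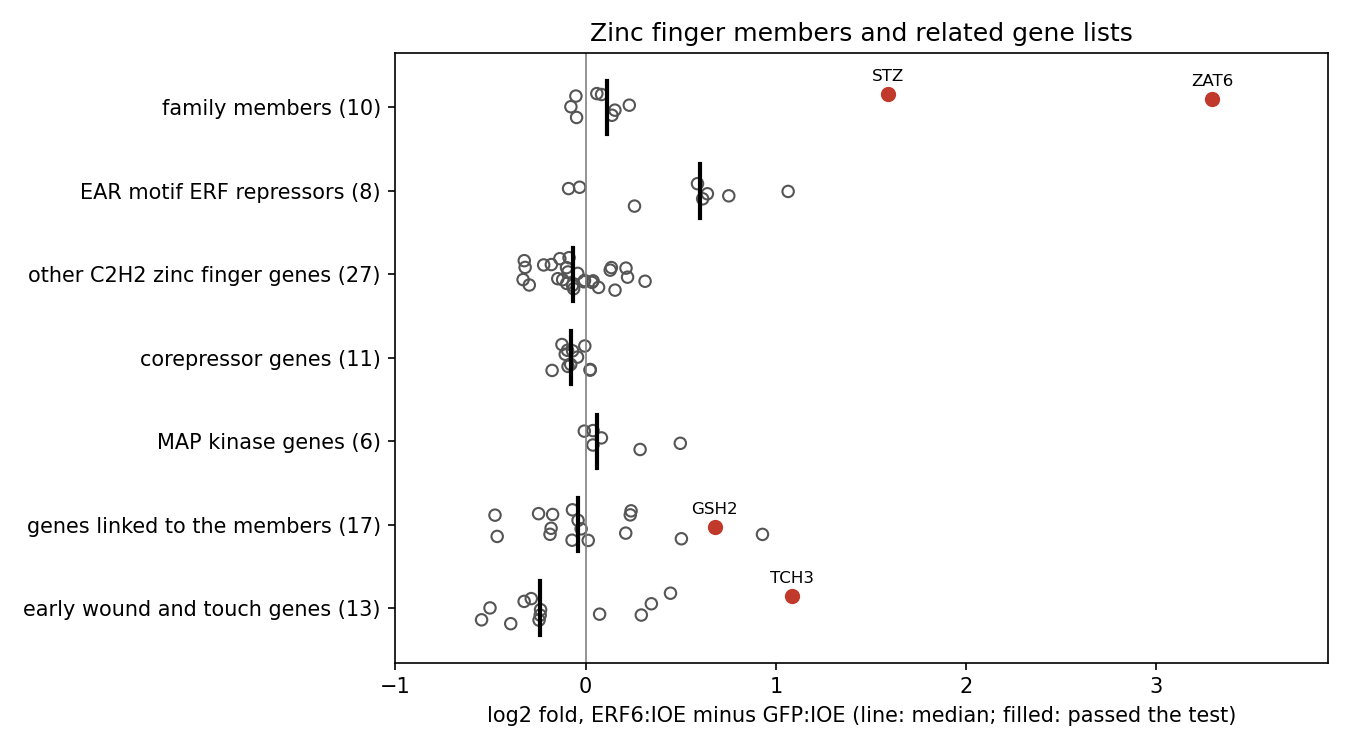
Log2 fold, ERF6:IOE minus GFP:IOE, of each measured gene in the zinc finger family and 6 related lists, with the number of genes in parentheses, filled points for genes that passed the test and a line at each list's median. ZAT6, STZ, GSH2 and TCH3 are the points that passed, and the median is largest for the ERF repressors (0.60).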

How the data were processed

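RNA of leaf 3 was measured on 6 AGRONOMICS1 tiling arrays, 3 for each line. The authors deposited log2 expression values with 1 row per gene model group (30237 rows), made with RMA and limma on genome build TAIR9, per the submitters' processing notes. Tool versions and settings were not stated there. RMA equalises the arrays' distributions, and the table holds no detection calls. Precision is limited by the number of arrays. Array medians lay between 4.85 and 4.90, and no 2 arrays held identical values.

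The 10 loci of the zinc finger family each matched 1 row. The difference of ERF6:IOE from GFP:IOE was fitted to all rows without a filter by lmFit and eBayes of limma 3.58.1 in R 4.3.3. Two-sided p-values were adjusted by Benjamini-Hochberg over all rows, at a threshold of 0.05. The fit was also run on simulated arrays whose noise was drawn independently, so that run does not cover effects shared by same-numbered arrays. Members and gene lists were chosen with earlier results of these data known. In 12 other lists, 113 of 114 loci had a row, and the brightest row stood for a locus that had more than 1. ERF6, all members, list members that passed (otherwise the 2 with the largest absolute moderated t) and the 3 rows closest to ZAT6 and to STZ were named by rule. Other listed genes given with values are said to be chosen after their values were seen. Gene symbols come from a table of assembly TAIR10.1, so no coordinates are given. The names ZAT5 and ZAT8 come from the definition of the family used here. The replicate number was not a term of the fit, and a fit with it as a block was an alternative. Other alternatives were rows above the median level, cyclic loess, median centring, array weights, a robust prior with a variance trend, and leaving out each array or repeat.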

Additional observations from a re-analysis of the deposited data

How the results depend on the processing

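Besides the fit with no replicate block, 15 alternatives were run. The fit above the median level kept rows by their mean over all arrays. ZAT6 lay below the array median in GFP:IOE and was kept through its ERF6:IOE values, so its pass in that fit is not separate support. ZAT6 passed in 15 of 15 (log2 fold 3.10 to 3.53, limma adjusted p 0.000192 to 0.0388) and STZ in 8 of 15 (limma adjusted p 0.0101 to 0.268), with 1.37 to 1.78 when arrays or repeats were left out. Zinc finger genes called higher numbered 1 to 2 there, and otherwise 2, as no alternative called another member. The 8 others changed sign in 19 of 115 fits, all with arrays or repeats left out, and none passed. Their ranges there were -0.045 to 0.17 (ZAT5), -0.51 to 0.26 (ZAT7), -0.40 to 0.15 (ZAT12), -0.30 to 0.16 (AZF1), -0.10 to 0.32 (AZF2) and -0.038 to 0.20 (AZF3), and HB-8 (-0.014 to 0.18) and LHCB2.1 (-0.0025 to 0.26), a vascular and a leaf marker, also changed sign.

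Deviations from the line means correlated between same-numbered arrays at 0.192, 0.0782 and 0.21, or at 0.438, 0.167 and 0.44 if the dimmer rows were left out, and each array correlated best with its own number. Same-numbered arrays thus shared part of their deviations, to a differing degree. The labels do not say whether the numbers pair the arrays, and the fit without the block is the one reported. With the replicate number as a block, STZ (limma adjusted p 0.0482) and ZAT6 (0.002) passed, GSH2 (0.093) and TCH3 (0.0558) did not, and 143 rows were higher and 5 lower, against 211 and 8. With arrays or repeats left out, and so with fewer samples, 45 to 126 rows were called higher and 1 to 6 lower. Above the median level 268 were higher and 22 lower, with fewer rows tested. Of the 82 genes in the regulator, downstream and touch lists, 2 were higher. That count was 0 with the block, 6 above the median level and 4 with a variance trend and robust prior. With arrays or repeats left out it was 0 to 1. The cause of the count with the variance trend and robust prior was not tested. The difference between the log2 folds of ZAT6 and STZ, with alternatives chosen after the data were seen, was 1.71 after cyclic loess and 1.55 to 1.95 with arrays or repeats left out. Signal over background was not analysed here.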
